A study of Mus musculus with 6 samples.

Results

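The clustered protocadherins are cell-surface cadherins encoded in 3 tandem gene clusters, alpha, beta and gamma, on mouse chromosome 18. Members were taken by name from the table of gene counts, as every row named Pcdha, Pcdhb followed by a digit, or Pcdhga, Pcdhgb or Pcdhgc. This gave 57 of the 55367 rows, with 13 in the alpha cluster, 22 in the beta cluster and 22 in the gamma cluster. Of the 57 members, 55 passed the filter on low counts and were tested, among 16976 tested genes in all. The data are poly(A) RNA-seq of cerebral cortical cells from 1-day-old (P1) mouse pups, grown for 2 days in vitro in Neurobasal/B27 Plus medium, with 3 wild-type (WT) and 3 Fmr1-KO libraries. Both groups carry the C57BL/6J background, and the Fmr1 knock-out is carried in the whole animal, so every cell type of the culture carries it. Fmr1 encodes FMRP, an RNA-binding protein whose loss causes fragile X syndrome, and the study asked how its absence changes neuronal transcripts, among them targets of nonsense-mediated mRNA decay (NMD). In both groups the study removed ACSA2-positive astrocytes and myelin with antibody-coated beads before plating, so the cultures are neuron-enriched and not pure.

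In each neuron the clustered protocadherins are switched on by promoter choice. A variable first exon in the alpha and gamma clusters carries its own promoter and is spliced to constant exons shared by the whole cluster, while each beta gene is a single-exon gene with no constant part. The protein isoforms pair with themselves across cell membranes, and the combination a neuron displays lets its branches tell self from non-self. The members named with a C (Pcdhac1, Pcdhac2, Pcdhgc3, Pcdhgc4 and Pcdhgc5) lie next to the constant exons of their clusters and differ in regulation from the others, whose choice is stochastic. They are known for separate roles, such as axon tiling by Pcdhac2 and neuronal survival by Pcdhgc4.

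The library labels were checked first on Fmr1 itself. Fmr1 had 118.3, 112.2 and 109.6 CPM (counts scaled to library size, with TMM factors) in the WT libraries and 54.2, 61.4 and 56.7 CPM in the Fmr1-KO libraries, a log2 fold-change of -0.98 (SE 0.04, edgeR quasi-likelihood test with Benjamini-Hochberg adjustment, adjusted p = 2.25e-13). The knock-out libraries thus kept 50.6% of the WT level in counts over the whole gene. Library totals ran from 30348556 to 35126207 counts. At an adjusted p below 0.05 in this test, 21.9% of all tested genes were lower in Fmr1-KO and 20.7% were higher. The marker counts that follow use the same threshold. All 8 neuronal markers checked were lower in Fmr1-KO, with a summed level of 3270 to 3334 CPM in WT and 2538 to 2681 CPM in Fmr1-KO, and 8 of 10 markers of progenitors and cycling cells were higher, with 2016 to 2070 CPM against 2585 to 2735 CPM. Oligodendrocyte-lineage markers (7 of 7 lower, 1882 to 2043 against 1073 to 1158 CPM) and microglial markers (5 of 6 lower, 119.6 to 134.4 against 76.0 to 83.3 CPM) also moved. Astrocyte markers were split, with 3 of 7 lower and 2 higher (4731 to 4854 against 4160 to 4549 CPM), and were well above 0 in all 6 libraries despite the depletion. Fibroblast markers were lower for 3 of 4 (287.5 to 320.6 against 263.7 to 290.3 CPM), and endothelial and mural markers were higher for 3 and lower for 1 of 5 tested (75.5 to 82.9 against 93.0 to 99.6 CPM). Of the 6 excitatory-neuron markers 3 were lower and 3 higher (426.5 to 438.2 against 404.4 to 434.7 CPM), and the 6 interneuron markers split in the same way (657.6 to 683.6 against 744.0 to 814.3 CPM). No marker of any list was at 0 in all libraries. In bulk RNA, fewer cells of a type and less RNA per cell cannot be told apart, and the part of these shifts in the protocadherin values below was not tested. Neither the labels nor the files tie a library to a litter, so p-values measure only the spread between these libraries.

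Under Fmr1 loss, clustered protocadherin transcripts were either lower or not called, and the alpha cluster stood lowest. At an adjusted p below 0.05, 19 of the 55 tested members (34.5%) were lower in Fmr1-KO and none was higher, against a background of 21.9% lower and 20.7% higher among the tested genes. The share differed by cluster: 8 of 12 alpha members (66.7%), 7 of 21 beta members (33.3%) and 4 of 22 gamma members (18.2%) were lower. The gamma share was near the 21.9% of all tested genes. The median log2 fold-change was -0.44 in the alpha cluster, -0.17 in the beta cluster and -0.0032 in the gamma cluster, against 0.006 over all tested genes. The highest Fmr1-KO library was still under the lowest WT library for 24 members, 9 alpha, 10 beta and 5 gamma, and for 26.3% of all tested genes. The reverse held for 2 members, Pcdhga10 and Pcdhgb8, against 25.4% of all tested genes. With DESeq2, 13 members and 19.2% of all tested genes were lower. The beta share was near that background with DESeq2, at 4 of 21 genes. With a required fold-change above 1.2, 4 members and 7.89% of all tested genes were lower.

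**Figure D1:**
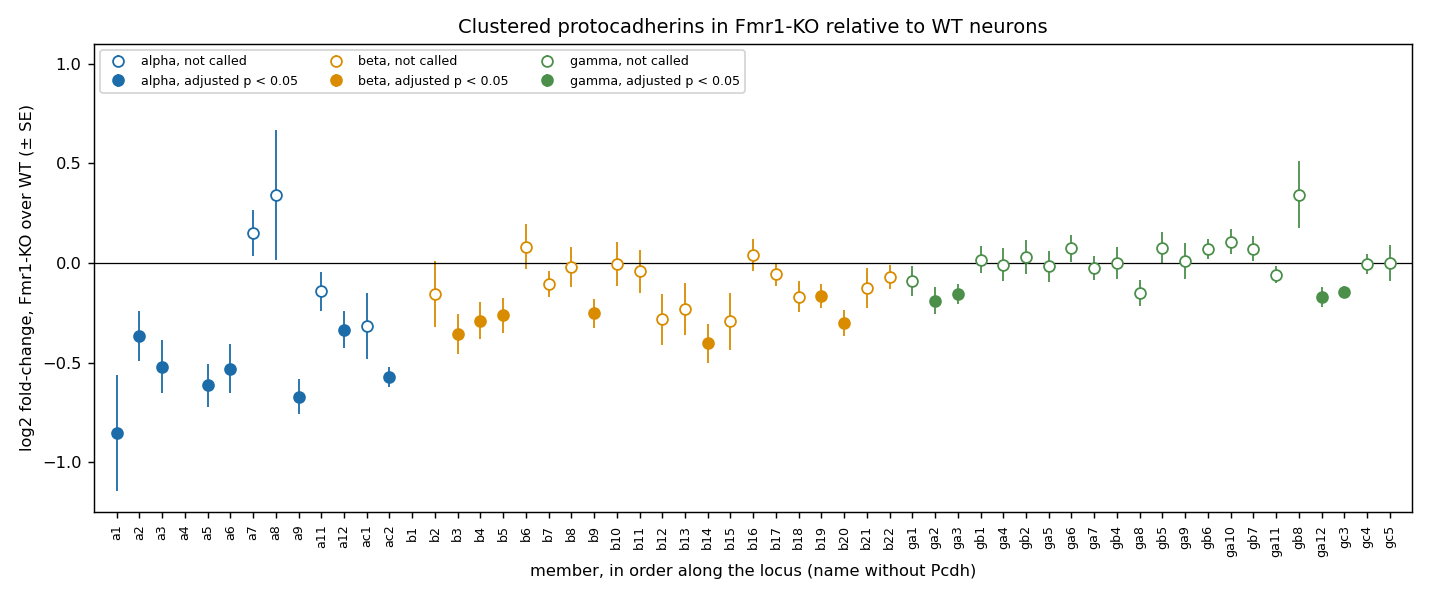
Log2 fold-change of Fmr1-KO over WT (y axis, points with standard errors) for the 55 tested members in their order along the locus (x axis), with filled points where the adjusted p was below 0.05. Alpha members reach down to -0.85, the lowest beta member is at -0.40 and the lowest gamma member at -0.19.

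In GRCm38 coordinates the alpha cluster spans positions 36930184 to 37187661 of chromosome 18, the beta cluster 37264938 to 37524479 and the gamma cluster 37661793 to 37841873, all on the plus strand. Log2 fold-change and a member's rank in order along the locus had a Pearson r of 0.58 and a Spearman rho of 0.56 over the 55 members. These members share libraries and, within the alpha and gamma clusters, their last exons. Within a cluster the values were smaller, with r of 0.27 over 12 alpha members, 0.08 over 21 beta members and 0.25 over 22 gamma members. No cluster alone came near the value over all 55.

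Added up over their members, the clusters differed in the same way. The alpha cluster summed to 85.3, 86.5 and 88.5 CPM in the WT libraries and to 64.4, 60.4 and 64.1 CPM in the Fmr1-KO libraries, with means of 86.8 ± 1.58 and 62.9 ± 2.21 CPM (SD, n = 3 each), 72.5% of WT. The beta cluster summed to 188.3, 197.3 and 187.9 CPM in WT and to 169.6, 173.1 and 172.3 CPM in Fmr1-KO, 89.8% of WT. The gamma cluster summed to 629.6, 613.5 and 640.9 CPM in WT and to 597.0, 579.5 and 607.1 CPM in Fmr1-KO, 94.7% of WT. In none of the 3 clusters did the libraries of the groups overlap on this TMM scale. With library totals alone the gamma libraries did overlap, while those of the alpha and beta clusters stayed apart. The gamma sum turned on its most abundant member, Pcdhgc3: without it the remaining 21 gamma genes came to 353.5 ± 7.43 CPM in WT and 346.5 ± 8.17 CPM in Fmr1-KO, and the libraries overlapped. In the alpha cluster the difference did not rest on 1 gene, since the members other than Pcdhac1 and Pcdhac2 summed to 46.5 ± 1.72 CPM in WT and 35.6 ± 2.12 CPM in Fmr1-KO, again without overlap.

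**Figure D2:**
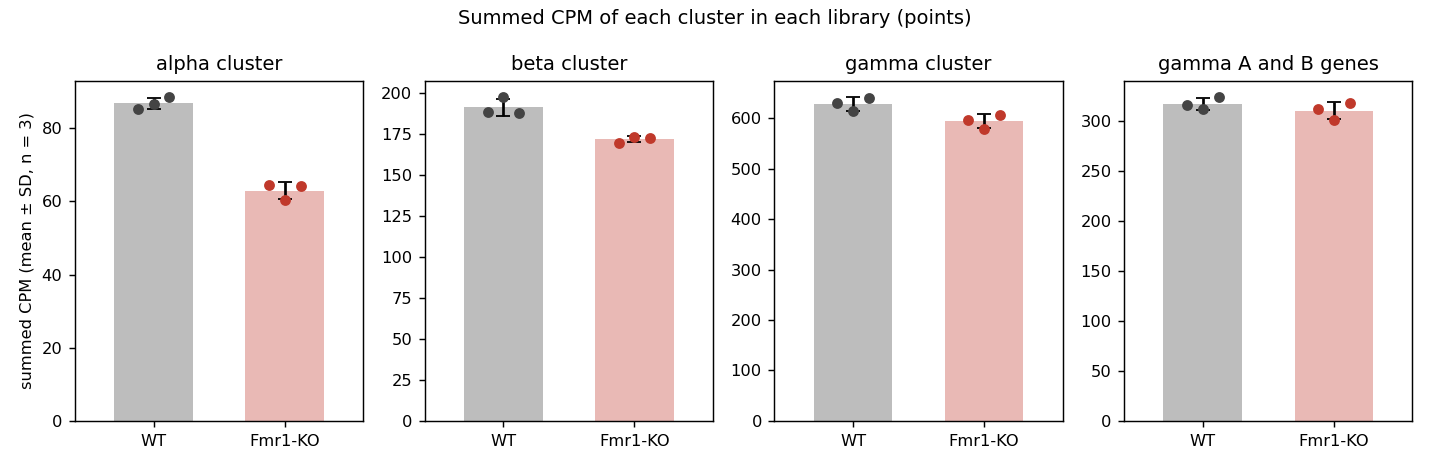
Summed CPM (y axis from 0) of the alpha, beta and gamma clusters and of the gamma A and B genes added together, with 1 point per library and bars for the mean ± SD of 3 libraries. The alpha bars stand at 86.8 and 62.9 CPM without overlap between libraries, whereas the combined sums of the gamma A and B genes overlap between the groups.

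Ratios taken inside a library do not depend on how libraries were scaled to each other. For every 100 gamma counts there were 13.6, 14.1 and 13.8 alpha counts in the WT libraries and 10.8, 10.4 and 10.6 in the Fmr1-KO libraries, with no overlap. Beta counts per 100 gamma counts were 29.9, 32.2 and 29.3 in WT and 28.4, 29.9 and 28.4 in Fmr1-KO, and these ranges overlapped. The alpha cluster was thus lower relative to the gamma cluster in every Fmr1-KO library. It was also lower relative to the beta cluster, with 45.3, 43.9 and 47.1 alpha counts per 100 beta counts in WT and 38.0, 34.9 and 37.2 in Fmr1-KO. With 3 libraries a group, an exact permutation test on such a ratio cannot go below p = 0.10, and none is given.

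Compared per unshared exon length, the gamma cluster had the highest median level. Reads falling on exons of several gene names could not be given to 1 of them by the authors' counting, so levels were set per kilobase of exon held by no other name (RPKM, that is CPM divided by those kilobases). On that scale the WT median was 1.71 in the alpha cluster (0.156 to 12.6 over the tested members), 1.56 in the beta cluster (0.773 to 5.17) and 5.97 in the gamma cluster (0.685 to 81.2). Per kilobase of all exons, shared bases included, the medians were 0.738, 1.56 and 3.33 RPKM. The scale matters because 29.2% to 91.4% of an alpha member's exon bases and 31.5% to 66.8% of a gamma member's were also under another name, while at most 9.67% of a beta member's were. The counts of alpha and gamma members therefore mostly read their variable exons, and a difference in the constant exons is not seen here.

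**Figure D3:**
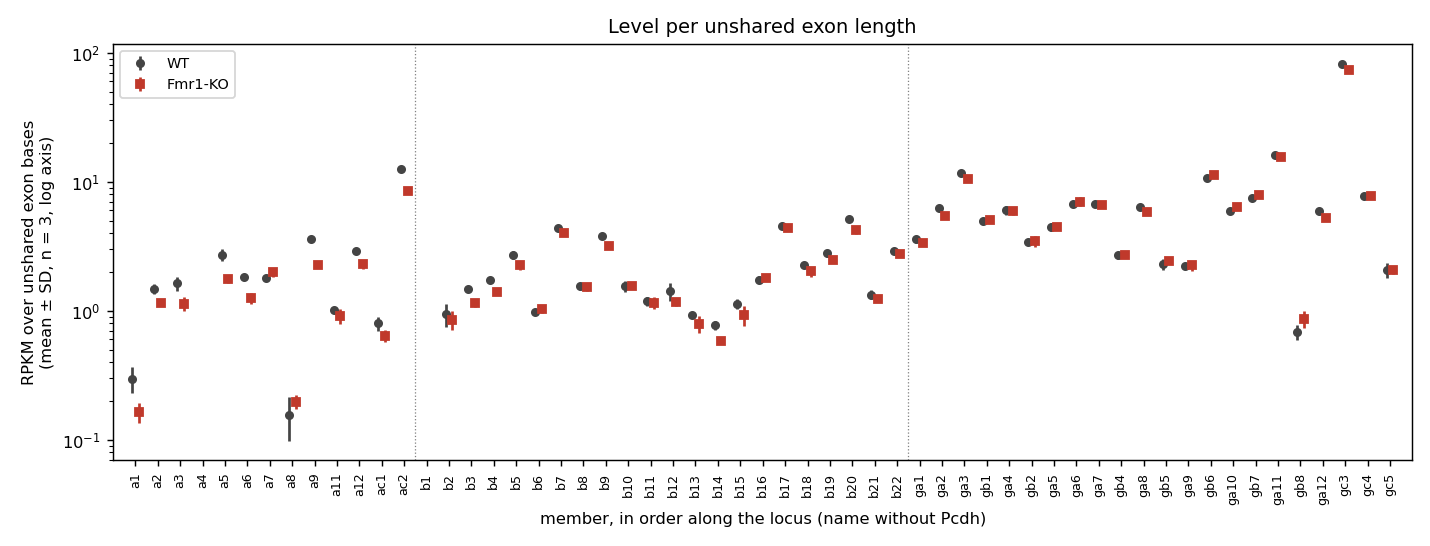
Level of each tested member in RPKM over unshared exon bases (y axis, log scale, mean ± SD of 3 libraries), in WT (circles) and Fmr1-KO (squares), in order along the locus with dotted lines between the clusters. Pcdhgc3 is highest at 81.2 RPKM in WT, and Pcdhac2 leads the alpha cluster at 12.6 RPKM.

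Pcdhac2 made up the largest part of the alpha signal. It had 38.7, 36.5 and 39.5 CPM in the WT libraries and 25.1, 25.5 and 26.4 CPM in the Fmr1-KO libraries. The groups were far apart, and the log2 fold-change was -0.57 (SE 0.05, adjusted p = 5.62e-09). Its share of all alpha counts was 45.3%, 42.2% and 44.7% in WT and 39.0%, 42.1% and 41.3% in Fmr1-KO, so the nearest libraries of the groups almost met. Pcdhac1, the other C-type alpha gene, had 1.93, 1.88 and 2.34 CPM in WT and 1.57, 1.503 and 1.84 CPM in Fmr1-KO. Its libraries did not overlap either, but at 46 to 78 counts a library the log2 fold-change of -0.32 (SE 0.17) did not pass the test (adjusted p = 0.134).

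The other alpha members are alternates, from which a neuron chooses few. Pcdha9, the most abundant of them, had 8.57, 9.53 and 8.81 CPM in WT and 5.51, 5.68 and 5.69 CPM in Fmr1-KO, a log2 fold-change of -0.67 (SE 0.09, adjusted p = 2.1e-06). Pcdha5 had 5.61, 6.65 and 6.83 CPM in WT and 4.49, 3.95 and 4.02 CPM in Fmr1-KO, a log2 fold-change of -0.61 (SE 0.11, adjusted p = 9.37e-05). In both genes every WT library was above every Fmr1-KO library. Pcdha1 had the largest log2 fold-change of any member, -0.85, but on 19, 27 and 29 counts in WT and 16, 11 and 13 in Fmr1-KO, with an SE of 0.29 (adjusted p = 0.022). Pcdha6 (-0.53), Pcdha3 (-0.52), Pcdha2 (-0.37) and Pcdha12 (-0.33) were the remaining alpha genes that were lower. The 2 weakest of these calls hung on single libraries. Pcdha1 was not called without WT replicate 2 (adjusted p = 0.0665), WT replicate 3 (0.0947), Fmr1-KO replicate 2 (0.0724) or Fmr1-KO replicate 3 (0.075), nor with DESeq2 (0.101), and Pcdha2 was not called without WT replicate 3 (0.105) or Fmr1-KO replicate 3 (0.0774), nor with DESeq2 (0.0859).

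The alternate alpha genes that were not called were Pcdha7, Pcdha8 and Pcdha11. Pcdha11 had 7.08, 7.38 and 7.04 CPM in WT and 7.04, 5.49 and 6.90 CPM in Fmr1-KO, and the ranges met (log2 fold-change -0.14, 95% interval -0.35 to 0.06, which overlaps the -0.53 to -0.14 of the called Pcdha12). Its row needs care, since in the annotation used here the name Pcdha11 covers 2 gene models and no row carries the name Pcdha10. Pcdha7 stood at 3.83 ± 0.18 CPM in WT and 4.25 ± 0.37 CPM in Fmr1-KO (log2 fold-change 0.15, 95% interval -0.09 to 0.39). That interval lies above those of Pcdha9 (-0.85 to -0.49) and Pcdhac2 (-0.68 to -0.47), although the difference between genes was not tested. Pcdha8 had only 9 to 18 counts a library, and its interval of -0.34 to 1.02 holds little information. Pcdha4 was not tested, with 0 counts in 5 libraries and 1 count in the remaining library. Only 494 of its 5768 exon bases are held by no other name, and 2410 are shared with the read-through model Gm42416, itself at 0 in every library, so its count does not measure its expression.

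**Figure D4:**
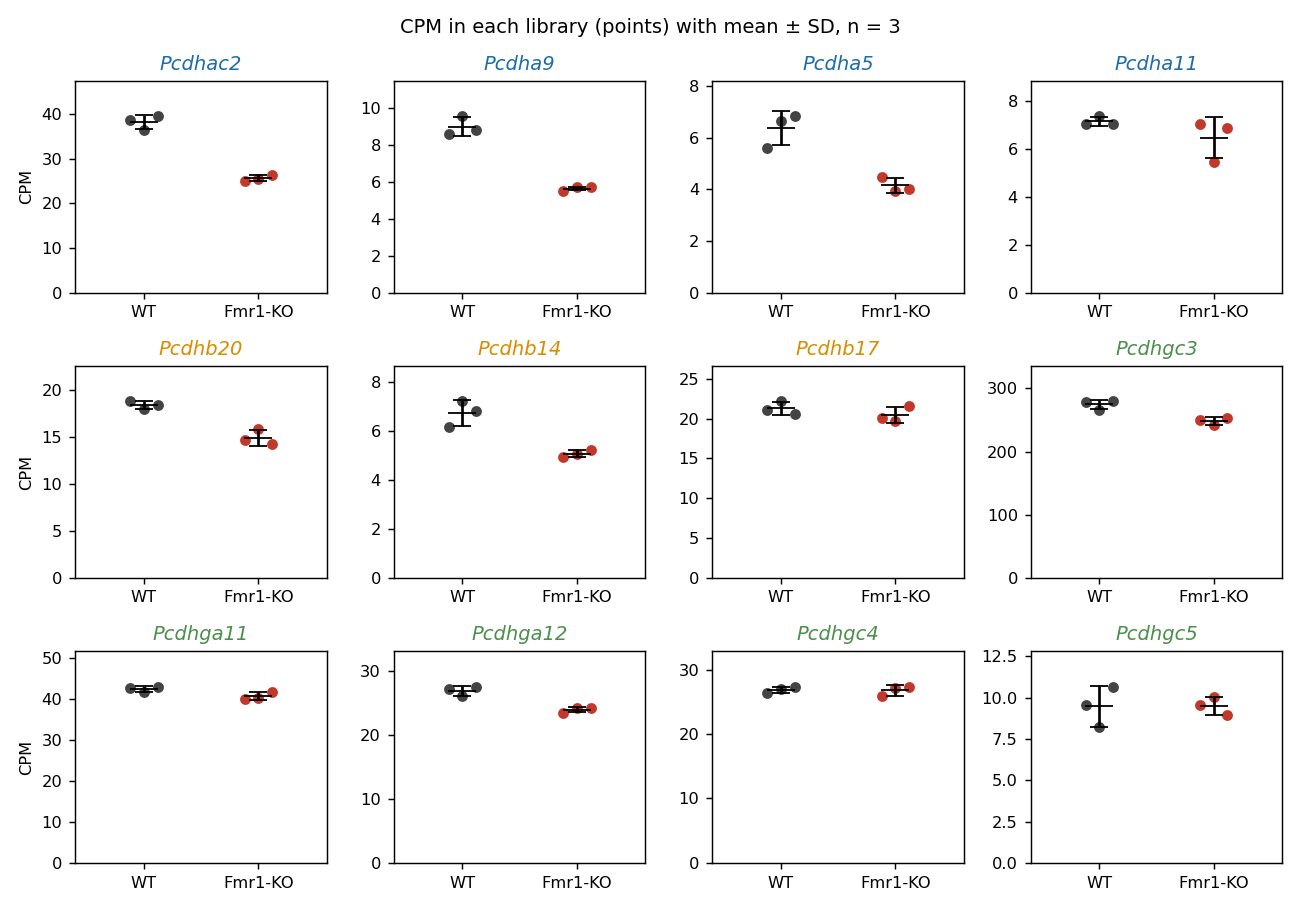
CPM of 12 members (y axes from 0) in each of 3 WT and 3 Fmr1-KO libraries, with points for libraries and bars for the mean ± SD, titles coloured by cluster (blue alpha, orange beta, green gamma). Pcdhac2, Pcdha9 and Pcdha5 separate widely between the groups, Pcdhgc3 by a smaller fraction of its level, and Pcdhgc4 and Pcdhgc5 overlap.

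Beta genes were lower by less. They lack the constant cytoplasmic part, and each count is almost free of shared exons. Of the 21 tested, 19 had a negative log2 fold-change, and the 7 that passed the test ran from -0.40 to -0.17. Pcdhb14 had 6.16, 7.20 and 6.80 CPM in WT and 4.95, 5.06 and 5.20 CPM in Fmr1-KO (log2 fold-change -0.40, SE 0.10, adjusted p = 0.002). Pcdhb3 had 5.41, 5.69 and 5.66 CPM in WT and 4.58, 4.48 and 4.05 CPM in Fmr1-KO (log2 fold-change -0.36, SE 0.10, adjusted p = 0.00747). In neither gene did the groups overlap. Pcdhb20, highest of the cluster per exon length, had 18.8, 17.97 and 18.4 CPM in WT and 14.7, 15.9 and 14.3 CPM in Fmr1-KO (log2 fold-change -0.30, SE 0.06, adjusted p = 0.000604). Pcdhb4 had 6.39, 6.59 and 6.26 CPM in WT and 5.44, 5.03 and 5.26 CPM in Fmr1-KO (log2 fold-change -0.29, SE 0.09, adjusted p = 0.0168). Both again showed no overlap between the groups. Pcdhb5 (-0.26) and Pcdhb9 (-0.25) were lower as well. Pcdhb4 was not called without Fmr1-KO replicate 2 (adjusted p = 0.0518) or with DESeq2 (0.0673), and Pcdhb5 was not called without WT replicate 2 (0.078), WT replicate 3 (0.0507), Fmr1-KO replicate 2 (0.0779) or Fmr1-KO replicate 3 (0.0592), nor with DESeq2 (0.0512).

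Among the 3 beta genes with the most counts over both groups, Pcdhb19 alone passed, and by little. In WT alone Pcdhb20, called above, stood higher than Pcdhb22, with means of 18.4 and 17.7 CPM. Pcdhb19 had 19.6, 21.2 and 18.8 CPM in WT and 17.0, 18.03 and 18.2 CPM in Fmr1-KO (log2 fold-change -0.17, SE 0.06, adjusted p = 0.0385), the called member nearest to the threshold. Its call was lost when any library other than WT replicate 3 was left out (adjusted p from 0.0521 without Fmr1-KO replicate 3 to 0.169 without WT replicate 2), with DESeq2 (0.0858), with upper-quartile scaling (0.0513) and with library totals alone (0.0816). Pcdhb17 had 21.2, 22.2 and 20.6 CPM in WT and 20.1, 19.7 and 21.6 CPM in Fmr1-KO, and the groups overlapped (log2 fold-change -0.06, 95% interval -0.18 to 0.07). Pcdhb22 had 17.4, 18.3 and 17.6 CPM in WT and 16.8, 16.8 and 17.0 CPM in Fmr1-KO. Its libraries did not overlap, yet the log2 fold-change of -0.07 was not called (adjusted p = 0.36). Pcdhb6 and Pcdhb16 were the beta genes with positive values, 0.08 and 0.04, and neither was called. Pcdhb1 was not tested, at 1 to 4 counts a library.

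In the gamma cluster the called differences were small. Pcdhgc3, whose C-type isoform is known to bind Axin1 in the Wnt pathway, gave 43.7% of the WT gamma counts. It had 277.8, 266.5 and 279.3 CPM in WT and 249.8, 241.6 and 252.9 CPM in Fmr1-KO, without overlap (log2 fold-change -0.15, SE 0.03, adjusted p = 0.000594). Its share of gamma counts was 44.1%, 43.4% and 43.6% in WT and 41.8%, 41.7% and 41.6% in Fmr1-KO. Pcdhgc4 had 26.4, 27.0 and 27.3 CPM in WT and 25.9, 27.1 and 27.4 CPM in Fmr1-KO. Pcdhgc5, a C-type isoform known to rise late in postnatal brain, had 9.58, 8.20 and 10.7 CPM in WT and 9.53, 10.03 and 8.94 CPM in Fmr1-KO. Both overlapped between the groups, and their 95% intervals of the log2 fold-change were -0.11 to 0.10 and -0.19 to 0.19.

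Each cluster with C-type genes thus held 1 that was lower and at least 1 that was not called. Pcdhac2, which was lower, and Pcdhgc4, a gene of another cluster that was not called, were set against each other with these calls known. Within each library there were 146.6, 134.9 and 144.9 Pcdhac2 counts per 100 Pcdhgc4 counts in WT and 97.2, 94.0 and 96.6 in Fmr1-KO. The ratio needs no scaling between libraries. Its ranges were wide apart, but with the genes chosen in this way the gap restates their calls and adds no support. Of the 5 C-type genes, 2 were lower (Pcdhac2 and Pcdhgc3), beside 21.9% of all tested genes.

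Gamma A and gamma B genes alternate along the cluster. Of 12 gamma A genes 3 were lower, near the 21.9% of all tested genes. Their median log2 fold-change was -0.04, with 9 negative values, or 6 when libraries were scaled by their totals alone. Summed, they came to 224.2, 220.9 and 232.2 CPM in WT and 216.3, 208.9 and 220.3 CPM in Fmr1-KO. These sums just missed each other on the TMM scale and overlapped with library totals alone. Pcdhga2 had 15.4, 15.97 and 16.7 CPM in WT and 14.2, 13.1 and 14.7 CPM in Fmr1-KO (log2 fold-change -0.19, SE 0.07, adjusted p = 0.0289). Pcdhga12 had 27.2, 26.1 and 27.6 CPM in WT and 23.5, 24.2 and 24.2 CPM in Fmr1-KO (log2 fold-change -0.17, SE 0.05, adjusted p = 0.0109). Pcdhga3 had 30.1, 30.2 and 31.4 CPM in WT and 28.8, 26.3 and 27.2 CPM in Fmr1-KO (log2 fold-change -0.16, SE 0.05, adjusted p = 0.018). These 3 genes sit at the start and the end of the run of gamma A and B genes, and none overlapped between the groups. Pcdhga2 was not called without WT replicate 3 (adjusted p = 0.106), Fmr1-KO replicate 1 (0.0535) or Fmr1-KO replicate 2 (0.122), nor with DESeq2 (0.0711) or library totals alone (0.0599), and Pcdhga3 was not called without WT replicate 3 (0.0692), Fmr1-KO replicate 2 (0.0721) or Fmr1-KO replicate 3 (0.0577). Pcdhga8 was the member nearest outside the threshold, with 15.8, 15.7 and 16.7 CPM in WT and 14.6, 13.9 and 15.0 CPM in Fmr1-KO (log2 fold-change -0.15, SE 0.06, adjusted p = 0.0685). Pcdhga11, the most abundant of the gamma A genes, had 42.5, 41.6 and 43.0 CPM in WT and 40.0, 40.1 and 41.8 CPM in Fmr1-KO, which met at their edges (log2 fold-change -0.06, 95% interval -0.15 to 0.03).

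None of the 7 gamma B genes was called in either direction. Their log2 fold-changes ran from 0.0002 to 0.34 with a median of 0.07, all on the positive side, though 1 of them, Pcdhgb4, at about 0, turned negative with the size factors of DESeq2 (6 of 7 positive). Summed, they came to 91.7, 90.9 and 91.4 CPM in WT and 95.5, 91.9 and 97.6 CPM in Fmr1-KO. Per 100 gamma A counts there were 40.9, 41.1 and 39.4 gamma B counts in WT and 44.2, 44.0 and 44.3 in Fmr1-KO, with no overlap. Pcdhgb8, annotated as a polymorphic pseudogene, had the highest value, 0.34, on 52 to 88 counts a library (95% interval -0.0041 to 0.69, adjusted p = 0.105). Pcdhgb2, Pcdhgb8 and Pcdhgc3 are on the list of NMD targets that the study drew up in Neuro-2a cells. Their log2 fold-changes were 0.03, 0.34 and -0.15. Only that of Pcdhgc3 was called, where 21.9% of all tested genes were lower. The study also set some targets against their pre-mRNA by RT-qPCR. Gene counts do not separate decay from synthesis, so NMD of these genes was not tested.

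Genes known to act on the promoters of the locus went mainly the other way. CTCF and cohesin loop a chosen promoter to a distant enhancer, and DNA methylation and SMCHD1 keep the others silent. Of 20 such genes 11 were higher and 1 was lower, with a median log2 fold-change of 0.14, where 20.7% of all tested genes were higher. Ctcf had 144.0, 149.5 and 141.6 CPM in WT and 151.1, 153.2 and 159.7 CPM in Fmr1-KO (log2 fold-change 0.09, SE 0.03, adjusted p = 0.029), a small difference between groups that did not overlap. Its call was lost in 3 of the fits that leave out 1 library, without WT replicate 1 (adjusted p = 0.0966), without WT replicate 3 (0.13) and without Fmr1-KO replicate 3 (0.159). Nipbl, which loads cohesin, had 102.2, 128.2 and 98.05 CPM in WT and 132.3, 162.4 and 129.8 CPM in Fmr1-KO (log2 fold-change 0.37, SE 0.08, adjusted p = 0.000574), and replicate 2 was the highest in both groups. With DESeq2 its adjusted p was 0.0617. Smchd1 had 112.0, 109.9 and 107.5 CPM in WT and 125.0, 133.7 and 127.0 CPM in Fmr1-KO (log2 fold-change 0.23, SE 0.03, adjusted p = 1.57e-05).

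The methyltransferases were split. Dnmt1, which copies methylation at replication, had 202.3, 198.5 and 196.9 CPM in WT and 246.9, 245.8 and 245.0 CPM in Fmr1-KO (log2 fold-change 0.30, SE 0.03, adjusted p = 2.61e-08), beside the rise of the cycling-cell markers given above, whose part was not tested. Dnmt3b, the enzyme that methylates these promoters early in development, was low at 3.79 ± 0.23 CPM in WT and 4.19 ± 0.43 CPM in Fmr1-KO and was not called (log2 fold-change 0.14, adjusted p = 0.357). Dnmt3a, named after its values were seen, was the regulator that was lower (239.0 ± 5.45 against 212.6 ± 2.26 CPM, log2 fold-change -0.17, adjusted p = 9.41e-05).

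Genes for known partners of the protocadherin proteins (among them kinases, WAVE complex subunits and neuroligins) and for the proteases that cut them were lower or not called, 11 of 19 lower and none higher, with a median of -0.15, where 21.9% of all tested genes were lower. The focal adhesion kinases that both alpha and gamma proteins inhibit parted. Ptk2b (PYK2) had 24.0, 20.5 and 21.6 CPM in WT and 10.1, 9.28 and 8.39 CPM in Fmr1-KO (log2 fold-change -1.26, SE 0.08, adjusted p = 3.62e-11), while Ptk2 (FAK) stood at 159.3 ± 0.79 and 158.7 ± 5.85 CPM and was not called (log2 fold-change -0.0059, adjusted p = 0.908). Ret, a receptor kinase that complexes with protocadherins, was at 2.49 ± 0.15 against 1.51 ± 0.28 CPM (log2 fold-change -0.72, adjusted p = 0.00114). Wasf1 (-0.56) and Cyfip2 (-0.49), of the WAVE actin-regulatory complex that alpha tails recruit, and Fyn (-0.38), a kinase bound by alpha proteins, were lower.

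Among protocadherins outside the clusters, 7 of 11 tested genes were lower and 1 was higher, with a median of -0.22, beside 21.9% and 20.7% of all tested genes. Pcdh7 went from 134.1 ± 4.58 to 77.8 ± 1.73 CPM (log2 fold-change -0.79, SE 0.04, adjusted p = 3.25e-13), and Pcdh11x (-0.61), Pcdh20 (-0.51) and Pcdh15 (-0.34) were lower too. Pcdh8, named after its values were seen, was higher, at 66.5 ± 5.00 and 81.5 ± 4.20 CPM (log2 fold-change 0.30, adjusted p = 3.53e-05). Of 20 other cadherin superfamily genes 10 were lower and 5 higher, with a median of -0.14, the higher share lying near the 20.7% of all tested genes and the lower share above the 21.9%. Cdh9 had the largest value, -1.74, at 2.02 ± 0.44 against 0.598 ± 0.13 CPM. Cdh20 (-0.79), Cdh13 (-0.78), Fat3 (-0.58), Cdh10 (-0.48), Cdh8 (-0.40) and Cdh6 (-0.37) were lower and Celsr1 was higher (0.58).

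**Figure D5:**
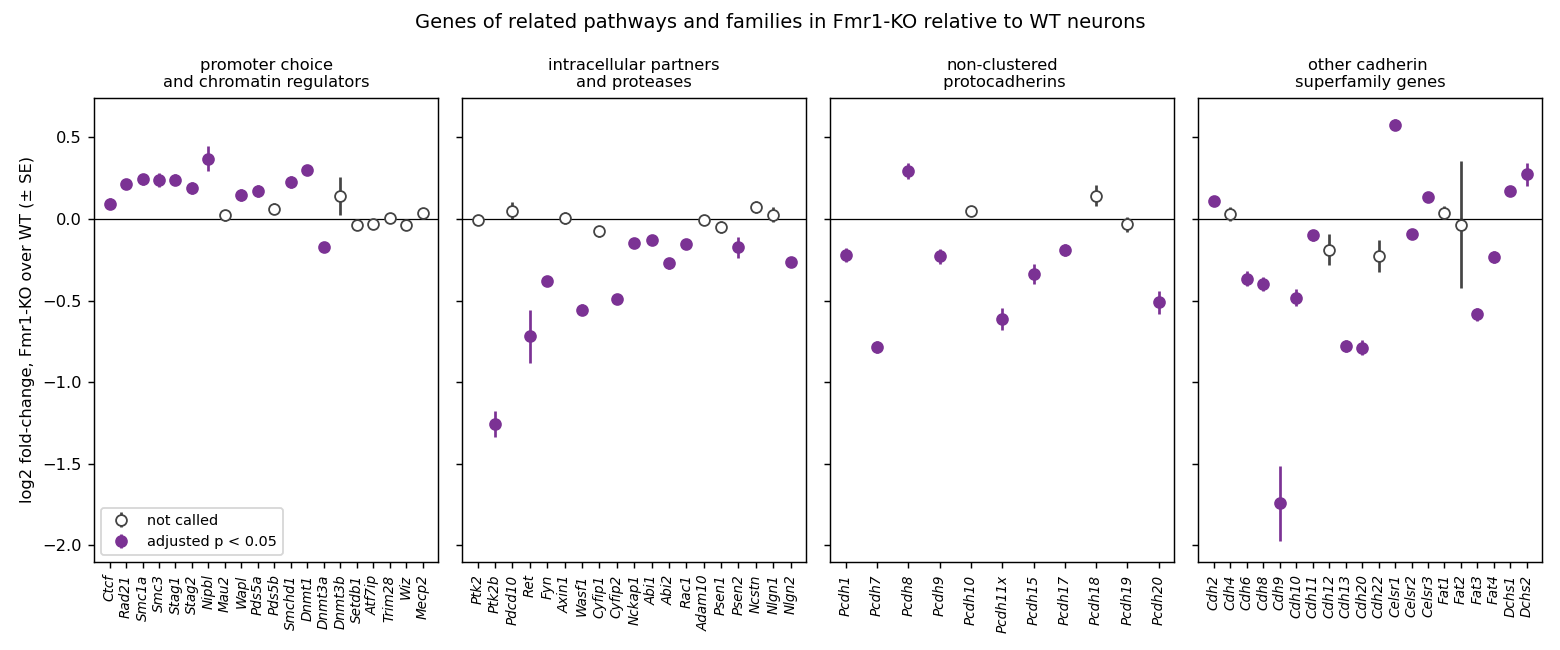
Log2 fold-change of Fmr1-KO over WT (y axis, points with standard errors) for the tested genes of 4 lists of related genes (x axes), with filled points where the adjusted p was below 0.05. Among the regulators 11 of 20 are filled above 0, among the intracellular partners 11 of 19 below 0, with Ptk2b lowest at -1.26.

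Of 27 further gene names between the first and the last member 7 were tested, 1 was higher and none was lower, which at this number of genes is near the background of 20.7% higher and 21.9% lower. BC037039 had the lowest log2 fold-change of them, -0.25 (95% interval -0.49 to -0.0059), and was not called (adjusted p = 0.0934). Taf7, a protein-coding gene on the minus strand between the beta and gamma clusters, had 22.1 ± 1.07 CPM in WT and 23.8 ± 0.50 CPM in Fmr1-KO (log2 fold-change 0.10, 95% interval -0.01 to 0.22). The minus-strand transcript Gm26672, inside the gamma cluster, had 2.99, 3.09 and 3.27 CPM in WT and 3.91, 3.92 and 4.34 CPM in Fmr1-KO, without overlap (log2 fold-change 0.38, SE 0.12, adjusted p = 0.0118). The libraries are stranded and the study counted by strand, so this signal was kept apart from the gamma genes opposite to it. These 3 genes were named after their values were seen, and the adjusted p of Gm26672 was 0.0579 with DESeq2 and 0.0615 without Fmr1-KO replicate 3.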

How the data were processed

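RNA-seq was analysed for 3 WT and 3 Fmr1-KO libraries, grouped by their labels. Per the labels and the study's methods, the authors built stranded poly(A) libraries, mapped single-end reads to GRCm38.p6 with STAR and counted them in exons by gene name and strand with featureCounts. Reads in exons of more than 1 gene name are left uncounted by that setting. Their submitters' notes name STAR 2.7.6a and Subread 2.0.1. The deposited values are raw counts per gene, with no normalization, and the file holds no column from outside the series.

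Counts were filtered with edgeR's default expression filter, scaled by TMM and tested with edgeR 4.0.16 (quasi-likelihood test) in R 4.3.3, with Benjamini-Hochberg adjustment over all 16976 tested genes and a threshold of 0.05. The procedure was tested on simulated counts with 200 changed genes and the same dispersion for every gene. That setting has far fewer changed genes than were called here. Precision is given as standard errors, 95% intervals and a common biological coefficient of variation of 3.22%. Replicates differed by more than counting noise (chi-square per degree of freedom 2.92 in WT and 3.17 in Fmr1-KO). Members were chosen by name, and the members and gene lists were chosen with earlier results of these data known. Genes with values in every library were the 3 most abundant of each cluster, the C-type genes, up to 4 called members of each cluster with the largest changes, and those nearest the threshold. Genes of other lists are named where called with an absolute log2 fold-change of at least 0.3, with Ctcf, Smchd1, Dnmt3b, Ptk2 and Ptk2b in any case. Exon lengths and positions come from GENCODE gene models of GRCm38, of another release than the one used for counting. No sequence is printed. Alternatives were DESeq2 1.42.0, other scalings and filters, a replicate block, a required fold-change of 1.2 and leaving out each library.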

Additional observations from a re-analysis of the deposited data

How the results depend on the processing

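The alpha difference kept its direction under all the alternatives run, and 12 of the 19 called members (6 of 8 alpha, 4 of 7 beta, 2 of 4 gamma) stayed called in every alternative in which they were tested other than the required fold-change. With that fold-change of 1.2 the calls were 4 in all, 4 alpha, 0 beta and 0 gamma. In the related lists they were 0 regulators lower and 0 higher, 5 partners lower, 3 non-clustered protocadherins lower and 0 higher, and 7 other cadherins lower and 1 higher. DESeq2 called 4 beta genes. A stricter filter, which tests fewer genes, left 4 alpha calls and medians of -0.57 (alpha) and -0.079 (all members), and no filter gave an alpha median of -0.37. Library totals alone gave a median of -0.10 and a log2 ratio of the summed members of -0.10, 1 partner and 3 non-clustered protocadherins higher. Leaving out 1 library at a time gave 2 to 4 gamma calls (2 without WT replicate 3 and without Fmr1-KO replicate 2), 1 to 2 non-clustered protocadherins higher, and medians from -0.14 to -0.094 for all members and from -0.20 to -0.12 for the beta cluster. Levels over unshared exons were 1.71 (alpha) and 5.97 RPKM (gamma). Signs turned only for genes near 0 and not called: with library totals Pcdhb8 (0.0088), Pcdhb10 (0.023), Pcdhga4 (0.019), Pcdhga5 (0.011), Pcdhga7 (0.0029), Pcdhgc4 (0.021) and Ptk2 (0.022), with upper-quartile scaling Pcdhb10 (0.0061), Pcdhga4 (0.0020), Pcdhgc4 (0.0040) and Ptk2 (0.0048), for Pcdhgb4 with DESeq2 (-0.00098), its size factors in edgeR (-0.00058), no filter (-0.00097) and the replicate block (-0.00078), and for Pcdhgc5 with those size factors (-0.00060) and no filter (-0.0010). Leaving out 1 library turned Pcdhb10 (-0.058 to 0.079), Pcdhb11 (-0.12 to 0.015), Pcdhb16 (-0.0094 to 0.078), Pcdhb8 (-0.077 to 0.027), Pcdhga4 (-0.056 to 0.049), Pcdhga5 (-0.075 to 0.020), Pcdhga7 (-0.058 to 0.011), Pcdhga9 (-0.044 to 0.075), Pcdhgb1 (-0.011 to 0.037), Pcdhgb2 (-0.024 to 0.10), Pcdhgb4 (-0.033 to 0.051), Pcdhgc4 (-0.024 to 0.017), Pcdhgc5 (-0.094 to 0.091) and Ptk2 (-0.036 to 0.015). The cause of these differences was not tested. The replicate numbers did not pair the libraries (correlations of deviations -0.03, 0.03 and -0.01), and a replicate block left 19 members lower, 8 alpha, 7 beta and 4 gamma. Few counts limit Pcdha1, Pcdha8, Pcdhac1 and Pcdhgb8, and Pcdha4 and Pcdhb1 were not measurable here.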
